A study of Mus musculus with 4 samples.

Results

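The glutathione, peroxiredoxin and antioxidant genes were followed in mouse cumulus cells (CCs), the somatic layer around the egg cell of an antral follicle. The members were picked by their gene symbols, in a rule that uses no measured value: glutathione S-transferases (Gst and Mgst), glutathione peroxidases (Gpx), peroxiredoxins (Prdx), thioredoxins with their reductases and Txnip, glutaredoxins (Glrx), the enzymes of glutathione synthesis (Gclc, Gclm and Gss), superoxide dismutases with catalase (Sod and Cat), and Nqo and Hmox. The choice gave 85 probes for 55 genes, of 25697 probes for 17854 gene names on the array. The samples were 2 pools of NSN-CCs, from developmentally incompetent oocytes whose chromatin does not ring the nucleolus, and 2 pools of SN-CCs, from competent oocytes whose chromatin does. Each pool was hybridised to its own array of the Illumina mouse-8 BeadChip type, and the layout of pools over chips is not given. All pools came from B6C3F1 females, 6 weeks old by the sample labels, that had been primed with folligon, a gonadotrophin preparation, and no pool was from untreated females. A pool gathers the CCs of many cumulus-oocyte complexes, the study calls the 2 pools of a type biological replicates, and nothing in the sources links a pool of one type to a pool of the other. P-values measure only the spread between these pools.

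Glutathione, a tripeptide built by the Gclc-Gclm enzyme and by Gss, is the main soluble thiol of the cell. Glutathione peroxidases spend it to reduce peroxides, glutathione transferases attach it to reactive compounds, and peroxiredoxins reduce peroxides with electrons that come mostly from thioredoxin. Cumulus cells are known to supply the enclosed oocyte with glutathione and its precursors through gap junctions.

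Many genes of this kind are known targets of the transcription factor NRF2, which binds the antioxidant response element. Its core, TGACNNNGC, was sought on both strands in RefSeq promoters of the assembly GRCm38.p6, from 250 bases before to 50 after each start. It was present for 7 of the 48 member genes with such a promoter (14.6%), against 3781 of 27025 genes in all (14%), so the members held it about as often as any gene. The 7 were Gclm, Gsta3, Gstm5, Mgst1, Prdx1, Sod1 and Txnrd1. The sites of 4 of them are shown as examples, with the motif in capitals, read 5′ to 3′ along the strand of the gene. These 4 had the lowest log2 fold changes (NSN-CCs minus SN-CCs) of the 7, and Sod1 was at 0.40, so the choice does not link the motif to a direction. A match is a description of the letters only. The Gclm stretch lies at chr3:122245403-122245451, that of Gsta3 at chr1:21240444-21240492, that of Prdx1 at chr4:116685446-116685494 and that of Txnrd1 at chr10:82859094-82859142, all on the plus strand.
Gclm: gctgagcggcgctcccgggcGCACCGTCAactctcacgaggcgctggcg
Gsta3: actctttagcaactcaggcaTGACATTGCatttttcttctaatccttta
Prdx1: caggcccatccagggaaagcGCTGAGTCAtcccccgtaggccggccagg
Txnrd1: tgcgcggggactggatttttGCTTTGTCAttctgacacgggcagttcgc

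The signals below are the deposited brightness values before normalization, in arbitrary units. Fold changes are on the log2 scale after background correction and quantile normalization, NSN-CCs minus SN-CCs, so a positive value means higher in NSN-CCs, and each carries the standard error (SE) of limma with n = 2 pools a type. Whether pools overlapped was read after normalization too, which can differ from the order of the deposited signals. A probe was taken as above background on an array where its signal passed the 95th percentile of the 1354 probes of chemosensory receptors there, a limit between 116 and 120. By this limit 55 member probes (43 genes) were above background on all 4 arrays, 16 on 1 to 3 arrays and 14 on none. A gene stands by its brightest probe unless another is named. Signals of different probes are not compared.

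SN-CCs replicate 2 differed from the rest of the arrays. It had 11721 probes above the limit, against 13522 to 13651 on the others, and its median absolute log2 difference from the other arrays was 0.54, against 0.12 to 0.15 for each of them. Of the 14 granulosa cell markers 12 were above the limit on all 4 arrays, although the labels name the tissue as oocytes. Foxl2 and Kitl were dim and under the limit in SN-CCs replicate 2. The summed granulosa signal was 213227 and 207590 in NSN-CCs, against 221862 and 170380 in SN-CCs. Inha had 45170 and 43879 in NSN-CCs, against 46056 and 3760 in SN-CCs. The log2 fold change was above 0 for 10 of the 14 and below for 4, with a median of 0.16, and of 0.030 without SN-CCs replicate 2. The summed signal of 13 oocyte markers was 3781 and 3848 in NSN-CCs, against 4896 and 5595 in SN-CCs, with 9 of them above the limit on all arrays and Zp2, a zona protein, on none. That of 8 red cell markers was 15803 and 16401 in NSN-CCs, against 13874 and 9708 in SN-CCs, with 5 above the limit on all arrays. Hba-a1, an alpha globin, made up most of that sum (14494 and 15008 in NSN-CCs, 12295 and 7965 in SN-CCs), whereas 6 of the 8 had a log2 fold change below 0, NSN-CCs minus SN-CCs, with a median of -0.45 over the list. The sums of the leukocyte list (1360 and 1454 in NSN-CCs, 1291 and 1186 in SN-CCs) and the endothelial list (1024 and 989 in NSN-CCs, 1010 and 958 in SN-CCs) differed less. Only 4 of 8 leukocyte and 2 of 7 endothelial markers were above the limit on all arrays. Background, still part of these sums, limits how far they can differ. SN-CCs replicate 2 was the highest for theca and stroma (7501 and 7498 in NSN-CCs, 7063 and 10965 in SN-CCs) and for mural granulosa markers (5384 and 5613 in NSN-CCs, 5616 and 8324 in SN-CCs). Of the 4 mural markers Lhcgr and Hsd3b1 were at their highest on that array, and Cyp11a1 and Star at their lowest. The part of these cells in the values below was not tested, and in such pools fewer cells of a type and less RNA per cell cannot be told apart.

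In this fit none of the antioxidant genes was called. At an adjusted p under 0.05 (limma, Benjamini-Hochberg over all probes) the count was 0 of 85 member probes and 0 of 25697 on the array (0%), and the adjusted p of the members lay between 0.811 and 0.998. Without adjustment, 5 member probes (5.88%) had a p under 0.05, against 800 probes on the array (3.11%): 4 were higher in NSN-CCs, where the array's share is 1.09%, and 1 was lower, where it is 2.02%. The 5 are probes of Gsto1, Gstm1, Gpx3, Gss and Nqo2. Both NSN-CCs pools lay above both SN-CCs pools for 15 member probes (17.6%; array 16%) and below them for 23 (27.1%; array 22.2%), while 47 overlapped. Over the 55 genes, 24 had a fold change above 0 and 31 below, with a median of -0.045 beside -0.033 over all probes. An exact permutation test of 2 pools against 2 cannot give a two-sided p below 0.333.

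**Figure D1:**
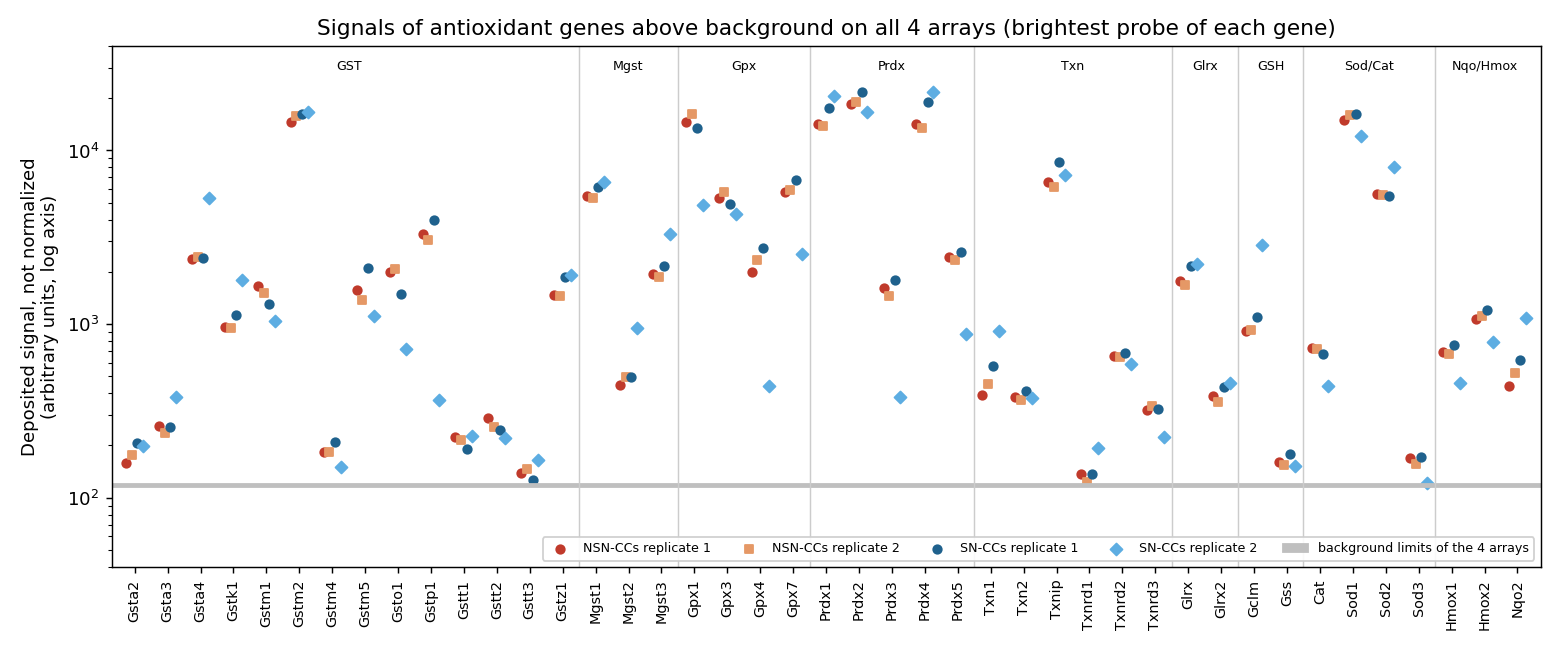
Deposited signals (arbitrary units, log axis) of the 43 genes above background on all 4 arrays, by class, each point being 1 pool on its array and the grey band the background limits. The points of the NSN-CCs pools and of SN-CCs replicate 1 lie close together for most genes, while SN-CCs replicate 2 lies far below them for Gstp1, Gpx4 and Prdx3 and far above for Gclm and Gsta4.

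The spread between pools was unequal. Among the 55 member probes above background on all arrays, the median SD between pools on the log2 scale was 0.051 in NSN-CCs and 0.38 in SN-CCs, beside 0.072 and 0.37 over all such probes of the array. SN-CCs replicate 2 was lower than replicate 1 by more than 1 on the log2 scale for 8 of the 55 (14.5%; array 9.69%) and higher by more than 1 for another 8 (14.5%; array 7.18%), while the NSN-CCs pools differed by that much for 0. Lower in replicate 2 were probes of Gstm2, Gstp1, Gpx1, Gpx4, Gpx7, Prdx3 and Prdx5 (2 probes). Higher in it were probes of Gsta3, Gsta4, Mgst2, Prdx2, Txn1, Txnrd1, Gclm and Nqo2. For this reason the fold changes of single probes are given also without SN-CCs replicate 2, a setting that holds no measure of the spread between SN-CCs pools.

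Of the glutathione synthesis genes, Gclm, the modifier subunit of the rate-limiting enzyme, had signals of 913 and 920 in NSN-CCs, against 1093 and 2852 in SN-CCs. Both NSN-CCs pools were low and nearly equal, and SN-CCs replicate 2 was the high one. The log2 fold change was -0.88 (SE 0.52), and -0.13 without that pool. Gclc, the catalytic subunit, stayed near the limit with 110 and 137 in NSN-CCs and 121 and 101 in SN-CCs, above it on 2 arrays. Gss, which adds the last amino acid, was read by 3 dim probes that differed in sign. Its probe ILMN_2667909, above background on all arrays, had 160 and 153 in NSN-CCs and 179 and 152 in SN-CCs (log2 fold change -0.31, SE 0.16, and -0.19 without SN-CCs replicate 2). ILMN_1227649 had 182 and 166 in NSN-CCs and 134 and 91.9 in SN-CCs, where replicate 2 was under the limit. Its log2 fold change was 0.68 (SE 0.24, unadjusted p of limma 0.045, adjusted p 0.811), and 0.43 without that pool. The remaining probe, ILMN_2818895, was at 0.29, and at 0.040 without that pool. The median of the 3 genes was -0.31, which was the value of Gss probe ILMN_2667909, while the other Gss probes were positive. Without SN-CCs replicate 2 the median was -0.13, the value of Gclm.

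Glutathione peroxidases had a fold change above 0 in 6 of 7 genes, with the highest median of the 9 classes (0.49, and 0.23 without SN-CCs replicate 2). That median was the value of Gpx3, and both were at 0.27 with no normalization between arrays and at 0.073 with scaling to the 75th percentile. Gpx3, the secreted plasma form, had 5331 and 5770 in NSN-CCs, against 4929 and 4302 in SN-CCs. The pools did not overlap and lay close together within each type. Its log2 fold change was 0.49 (SE 0.16, unadjusted p of limma 0.032, adjusted p 0.811), and 0.37 without SN-CCs replicate 2. Gpx1, the abundant cytosolic form, had 14648 and 16153 in NSN-CCs, against 13449 and 4851 in SN-CCs. Its pools did not overlap either, but SN-CCs replicate 2 alone was low, and the log2 fold change of 1.16 (SE 0.54) was 0.39 without it. For Gpx4, which reduces lipid peroxides in membranes, the signals were 1987 and 2339 in NSN-CCs and 2751 and 439 in SN-CCs. Here the SN-CCs pools enclosed the NSN-CCs pools, and the log2 fold change of 0.92 (SE 0.79) turned to -0.20 without SN-CCs replicate 2. A second Gpx4 probe, under the limit on that array only, was at 0.68, and 0.16 without it. Gpx7, a form of the endoplasmic reticulum, had 5754 and 5930 in NSN-CCs and 6743 and 2541 in SN-CCs, with a log2 fold change of 0.69 (SE 0.48) that was 0.015 without SN-CCs replicate 2. Gpx2, the gut form, was above the limit in both NSN-CCs pools (127 and 128) and in neither SN-CCs pool (110 and 113), and was at least 1.01-fold higher in NSN-CCs against the lowest signal above background. Gpx5, known from the epididymis, was under the limit on all arrays, and Gpx6 passed it on 1.

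Peroxiredoxins did not share a direction. Prdx1 and Prdx4 were bright and lower in both NSN-CCs pools. Prdx1, of the cytosol, had 14125 and 13834 in NSN-CCs, against 17501 and 20617 in SN-CCs (log2 fold change -0.21, SE 0.13, and -0.15 without SN-CCs replicate 2). Prdx4, of the endoplasmic reticulum, had 14194 and 13511 in NSN-CCs, against 18896 and 21826 in SN-CCs (log2 fold change -0.33, SE 0.14, and -0.25 without that pool). Leaving out SN-CCs replicate 2 moved both values by less than their SE, and neither passed the test (adjusted p of limma 0.811 for both). The mitochondrial forms read otherwise. Prdx3 had 1610 and 1459 in NSN-CCs, against 1796 and 379 in SN-CCs, with the low value in replicate 2 alone; the log2 fold change was 0.81 (SE 0.64), and -0.088 without it. Prdx5 had 2428 and 2325 in NSN-CCs, against 2610 and 873 in SN-CCs (0.68, SE 0.47), and was at 0.023 without SN-CCs replicate 2. Its second probe behaved in the same way, with 316 and 342 in NSN-CCs and 403 and 128 in SN-CCs (0.46, SE 0.48, and -0.22 without that pool). Prdx2, a cytosolic form abundant in red cells, was read by 3 probes. The brightest had 18551 and 18973 in NSN-CCs and 21750 and 16741 in SN-CCs (0.22, SE 0.20, and 0.0062 without SN-CCs replicate 2). ILMN_2638354 had 392 and 422 in NSN-CCs and 404 and 357 in SN-CCs (-0.080, SE 0.18, and 0.099 without it). ILMN_1242829 had 145 and 145 in NSN-CCs, against 182 and 270 in SN-CCs (-0.89, SE 0.42, and -0.34 without it). The Prdx2 probes thus gave both signs. Prdx6 was above the limit on at most 3 arrays. The median of the 7 peroxiredoxin genes was -0.21 (-0.11 without SN-CCs replicate 2), with 3 genes higher and 4 lower, whereas over the 5 genes above background on all arrays it was 0.22, with 3 higher and 2 lower.

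In the thioredoxin system 1 gene was higher and 5 lower, with a median of -0.17 (-0.082 without SN-CCs replicate 2). Txn1, the cytosolic thioredoxin, had 392 and 449 in NSN-CCs, against 570 and 916 in SN-CCs. All 4 pools kept apart by type, with SN-CCs replicate 2 the highest. The log2 fold change was -0.90 (SE 0.39), and -0.36 without that pool. Txn2, its mitochondrial counterpart, had 380 and 364 in NSN-CCs and 414 and 374 in SN-CCs (-0.27, SE 0.19, and -0.077 without SN-CCs replicate 2). Txnip binds and inhibits thioredoxin. Its signals were 6573 and 6150 in NSN-CCs and 8629 and 7195 in SN-CCs, lower in both NSN-CCs pools as deposited but overlapping after normalization (-0.068, SE 0.17, and -0.23 without SN-CCs replicate 2). The reductases return thioredoxin to its active form. Txnrd1, the cytosolic one, was dim, with 136 and 124 in NSN-CCs and 136 and 194 in SN-CCs (-0.61, SE 0.39, and -0.087 without SN-CCs replicate 2). The paper lists Txnrd1 among its genes down-regulated in NSN-CCs. Its call came from the same arrays, after its own normalization and by a permutation-based test with other thresholds. The authors' normalized values are a linear transform of the deposited signals on each array. The intercept was 136 on SN-CCs replicate 2, against 10.1 to 19.8 on the other arrays. Here SN-CCs replicate 2 alone was high for Txnrd1. Txnrd2, of mitochondria, had 655 and 644 in NSN-CCs and 679 and 588 in SN-CCs (-0.073, SE 0.16, and 0.049 without SN-CCs replicate 2), and its second probe 556 and 559 in NSN-CCs and 509 and 492 in SN-CCs (0.017, SE 0.20, and 0.23 without that pool). Txnrd3 had 322 and 336 in NSN-CCs and 325 and 225 in SN-CCs (0.075, SE 0.13, and 0.10 without it). With all 4 arrays, the probes of Txnrd2 and Txnrd3 differed between types by less than the SE.

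Both glutaredoxins among the members, which use glutathione to free protein thiols, were lower in both NSN-CCs pools. Glrx had 1780 and 1686 in NSN-CCs, against 2170 and 2219 in SN-CCs (-0.24, SE 0.14, and -0.17 without SN-CCs replicate 2). Glrx2 had 385 and 358 in NSN-CCs, against 433 and 458 in SN-CCs (-0.44, SE 0.24, and -0.14 without that pool). The dim probes of Glrx2, above the limit on 3 arrays each, were at 0.0061 and 0.049 (0.44 and 0.29 without that pool) and did not share that order.

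Glutathione S-transferases were the class with most genes, 19 genes on 27 probes, with 7 higher, 12 lower and a median of -0.10 (0.072 without SN-CCs replicate 2). Gsto1, of the omega subfamily, had 1987 and 2073 in NSN-CCs, against 1499 and 722 in SN-CCs. Both SN-CCs pools were lower, replicate 2 the more so. The log2 fold change was 0.98 (SE 0.28, unadjusted p of limma 0.021, adjusted p 0.811), and 0.59 without SN-CCs replicate 2. Its neighbour Gsto2 stayed near the limit, above it on at most 3 arrays. Among the mu transferases, Gstm1 (ILMN_1228233) had 1647 and 1507 in NSN-CCs, against 1300 and 1043 in SN-CCs, with no overlap. Its log2 fold change of 0.46 (SE 0.14, unadjusted p of limma 0.028, adjusted p 0.811) was 0.43 without SN-CCs replicate 2. A dimmer Gstm1 probe had 142 and 127 in NSN-CCs and 143 and 129 in SN-CCs and was at -0.17 (SE 0.15, and -0.10 without that pool), the other sign.

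Gstm2 was bright on 3 probes. ILMN_2624854 had 14646 and 15695 in NSN-CCs and 16184 and 16690 in SN-CCs; these deposited signals were lower in NSN-CCs, whereas after normalization the log2 fold change was 0.10 (SE 0.13, and 0.072 without SN-CCs replicate 2). ILMN_1251449 had 12679 and 12403 in NSN-CCs and 13126 and 16333 in SN-CCs (-0.017, SE 0.15, and 0.098 without that pool). ILMN_2862470 had 4999 and 4940 in NSN-CCs, against 5285 and 1099 in SN-CCs (1.13, SE 0.72, and 0.11 without SN-CCs replicate 2). So 1 probe was low in a pool in which the other 2 were not. Gstm4 had 183 and 183 in NSN-CCs and 209 and 151 in SN-CCs (-0.16, SE 0.13, and -0.15 without that pool). Gstm5 had 1579 and 1380 in NSN-CCs and 2108 and 1117 in SN-CCs (-0.045, SE 0.27, and -0.36 without SN-CCs replicate 2). The NSN-CCs pools of Gstm5 lay between the SN-CCs pools. Gstm6 was above the limit in every pool but SN-CCs replicate 2 on both of its probes, and Gstm3 in none. Members of the mu subfamily, like Gsta1 with Gsta2 and Gstp1 with Gstp2, are close in sequence, and a probe may read more than 1 of them.

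Gstp1, the pi transferase, showed the widest gap between SN-CCs pools of all member probes. Its signals were 3309 and 3056 in NSN-CCs, against 3985 and 367 in SN-CCs. With SN-CCs replicate 2 the log2 fold change was 1.35 (SE 1.06), and without it -0.16. A second probe had 1848 and 2148 in NSN-CCs and 2438 and 1221 in SN-CCs (0.25, SE 0.32, and -0.14 without that pool). Another Gstp1 probe was under the limit on all arrays, and Gstp2 passed it on 3. Of the alpha transferases, Gsta2 had 158 and 175 in NSN-CCs, against 207 and 199 in SN-CCs, with no overlap (-0.55, SE 0.23, and -0.30 without SN-CCs replicate 2). Gsta3 had 259 and 236 in NSN-CCs and 254 and 382 in SN-CCs (-0.55, SE 0.42). Gsta4, which conjugates products of lipid peroxidation, had 2386 and 2422 in NSN-CCs and 2409 and 5341 in SN-CCs (-0.40, SE 0.40). For Gsta3 and Gsta4 a single pool, SN-CCs replicate 2, was high, and the values without it were 0.037 and 0.15. Gsta1 was under the limit on all arrays.

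Of the remaining transferases, Gstk1, of mitochondria and peroxisomes, had 960 and 953 in NSN-CCs, against 1122 and 1786 in SN-CCs (-0.54, SE 0.32, and -0.10 without SN-CCs replicate 2). Gstz1, an enzyme of tyrosine breakdown, had 1480 and 1453 in NSN-CCs, against 1858 and 1912 in SN-CCs (-0.30, SE 0.15, and -0.19 without that pool). Both were lower in both NSN-CCs pools, and in Gstz1 the SN-CCs pools lay close together. The theta transferases were dim and overlapped. Gstt1 had 224 and 215 in NSN-CCs and 191 and 226 in SN-CCs (-0.17, SE 0.32). Gstt2 had 286 and 254 in NSN-CCs and 245 and 221 in SN-CCs (-0.0042, SE 0.21). Gstt3 had 138 and 147 in NSN-CCs and 127 and 166 in SN-CCs (-0.30, SE 0.34). Without SN-CCs replicate 2 all 3 turned positive (0.27, 0.23 and 0.17).

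The microsomal transferases, membrane enzymes of a separate family, had a median of -0.37 over 3 genes, and of 0.0041 without SN-CCs replicate 2. Mgst1 had 5464 and 5322 in NSN-CCs and 6191 and 6618 in SN-CCs (-0.024, SE 0.13, and 0.0041 without SN-CCs replicate 2), and its second probe 2191 and 2163 in NSN-CCs and 2378 and 1444 in SN-CCs (0.29, SE 0.23, and 0.011 without that pool). Mgst2 had 445 and 496 in NSN-CCs and 496 and 947 in SN-CCs (-0.64, SE 0.46, and 0.011 without SN-CCs replicate 2). In Mgst2 the high pool was SN-CCs replicate 2 alone. Mgst3 gave opposite signs on its 2 probes, with 1936 and 1873 in NSN-CCs and 2169 and 3322 in SN-CCs on one (-0.37, SE 0.27) and 895 and 903 in NSN-CCs and 1004 and 378 in SN-CCs on the other (0.43, SE 0.34). Without that pool the probes of Mgst3 were at -0.027 and -0.034.

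Superoxide dismutases turn superoxide into hydrogen peroxide, which catalase breaks down. The median of the 4 genes was 0.19, and 0.17 without SN-CCs replicate 2. Cat had 732 and 719 in NSN-CCs, against 677 and 437 in SN-CCs, with no overlap (0.30, SE 0.14, and 0.22 without that pool). Sod1, the cytosolic dismutase, had 14994 and 15968 in NSN-CCs and 16164 and 12134 in SN-CCs (0.40, SE 0.22, and 0.12 without it). For Sod1 the deposited signals overlapped and the normalized ones did not. Sod2, of mitochondria, had 5592 and 5557 in NSN-CCs and 5483 and 8037 in SN-CCs (-0.023, SE 0.21, and 0.22 without SN-CCs replicate 2). Sod3, the extracellular form, was dim, with 170 and 157 in NSN-CCs and 172 and 122 in SN-CCs (0.085, SE 0.16, and -0.056 without that pool).

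Among the quinone reductases, Nqo2 was read by 3 probes, all with a fold change below 0. ILMN_2968731 had 517 and 564 in NSN-CCs, against 817 and 696 in SN-CCs, with no overlap. Its log2 fold change was -0.60 (SE 0.15, unadjusted p of limma 0.014, adjusted p 0.811), and -0.50 without SN-CCs replicate 2. ILMN_2968729 had 441 and 523 in NSN-CCs, against 617 and 1091 in SN-CCs (-0.85, SE 0.42, and -0.27 without that pool). ILMN_1247930 had 471 and 465 in NSN-CCs, against 619 and 336 in SN-CCs (-0.15, SE 0.18, and -0.32 without it). Only on this last probe did the pools overlap, since SN-CCs replicate 2 was low there and high on ILMN_2968729. Nqo1, a well-known NRF2 target, stayed near the limit and passed it on 1 array. The heme oxygenases differed little. Hmox1, the inducible form, had 690 and 675 in NSN-CCs and 759 and 460 in SN-CCs (0.087, SE 0.15, and -0.031 without SN-CCs replicate 2). Hmox2, the constitutive form, had 1069 and 1118 in NSN-CCs and 1212 and 785 in SN-CCs (0.13, SE 0.16, and -0.0039 without that pool). In both genes the pools overlapped, and SN-CCs replicate 2 was the low one.

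**Figure D2:**
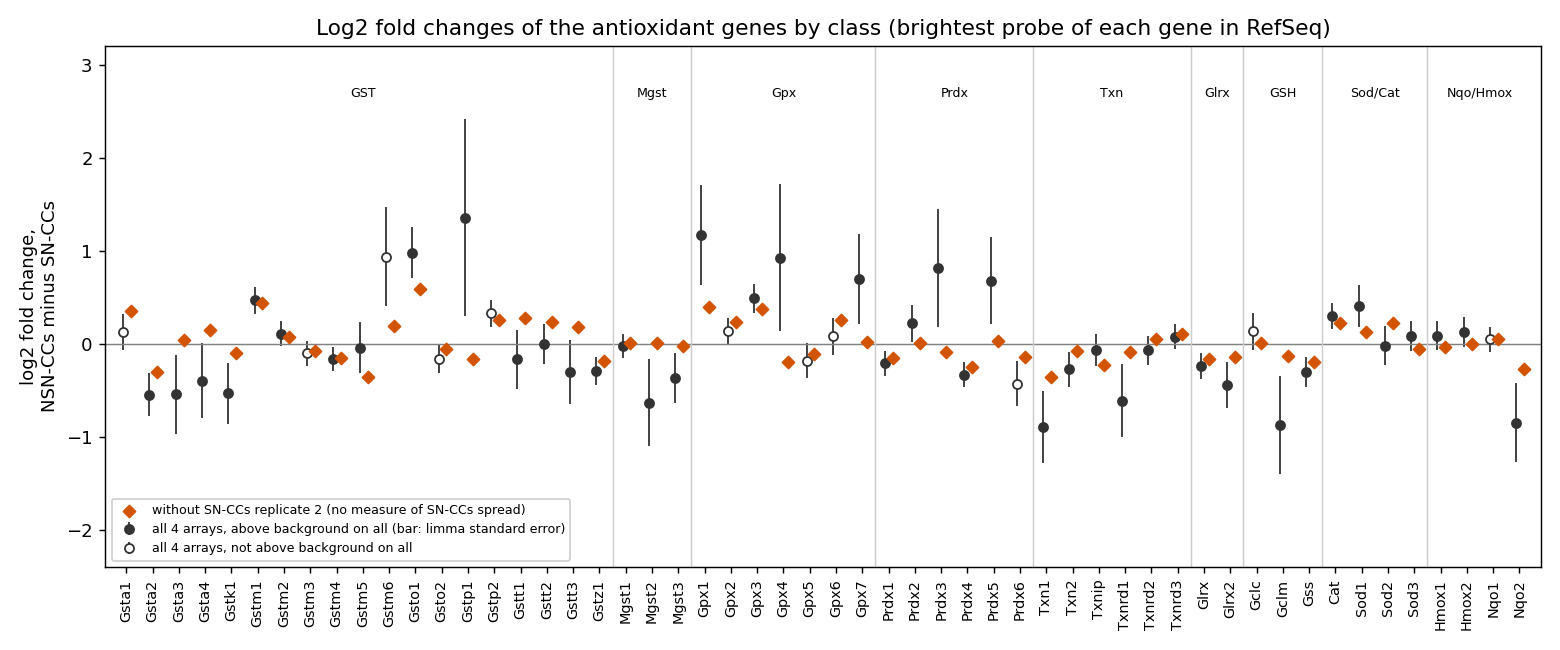
Log2 fold changes (NSN-CCs minus SN-CCs) of the 54 antioxidant genes found in RefSeq, by class, with all 4 arrays (circles, bars are limma's standard error; open circles are genes not above background on all arrays) and without SN-CCs replicate 2 (diamonds). The diamonds lie closer to 0 than the circles for most genes, as for Gstp1 (1.35 and -0.16) and Gclm (-0.88 and -0.13), while Gstm1 (0.46 and 0.43) keeps its value.

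For 9 genes more than 1 probe was above background on all arrays (21 probes), which allowed probes of the same gene to be set side by side by their fold change. The median difference between the lowest and the highest fold change of a gene was 0.71, and 0.18 without SN-CCs replicate 2. It was smaller without that pool in 7 of the 9 genes, Prdx5 and Txnrd2 being the others. On the step between the SN-CCs pools (replicate 2 minus replicate 1), the probes of Gstm2 differed by 2.29, those of Gstp1 by 2.24 and those of Mgst3 by 1.61. Between the NSN-CCs pools the same differences were 0.11, 0.35 and 0.074. With all arrays, the probes of Gstm2, Prdx2, Mgst1, Mgst3, Gstm1 and Txnrd2 had both signs. In Gstm2, Prdx2, Mgst1 and Txnrd2 at least 1 of these values was smaller than its SE. Without SN-CCs replicate 2 the probes of Gstm1 and Prdx2 still had both signs, and those of Prdx5 took both.

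**Figure D3:**
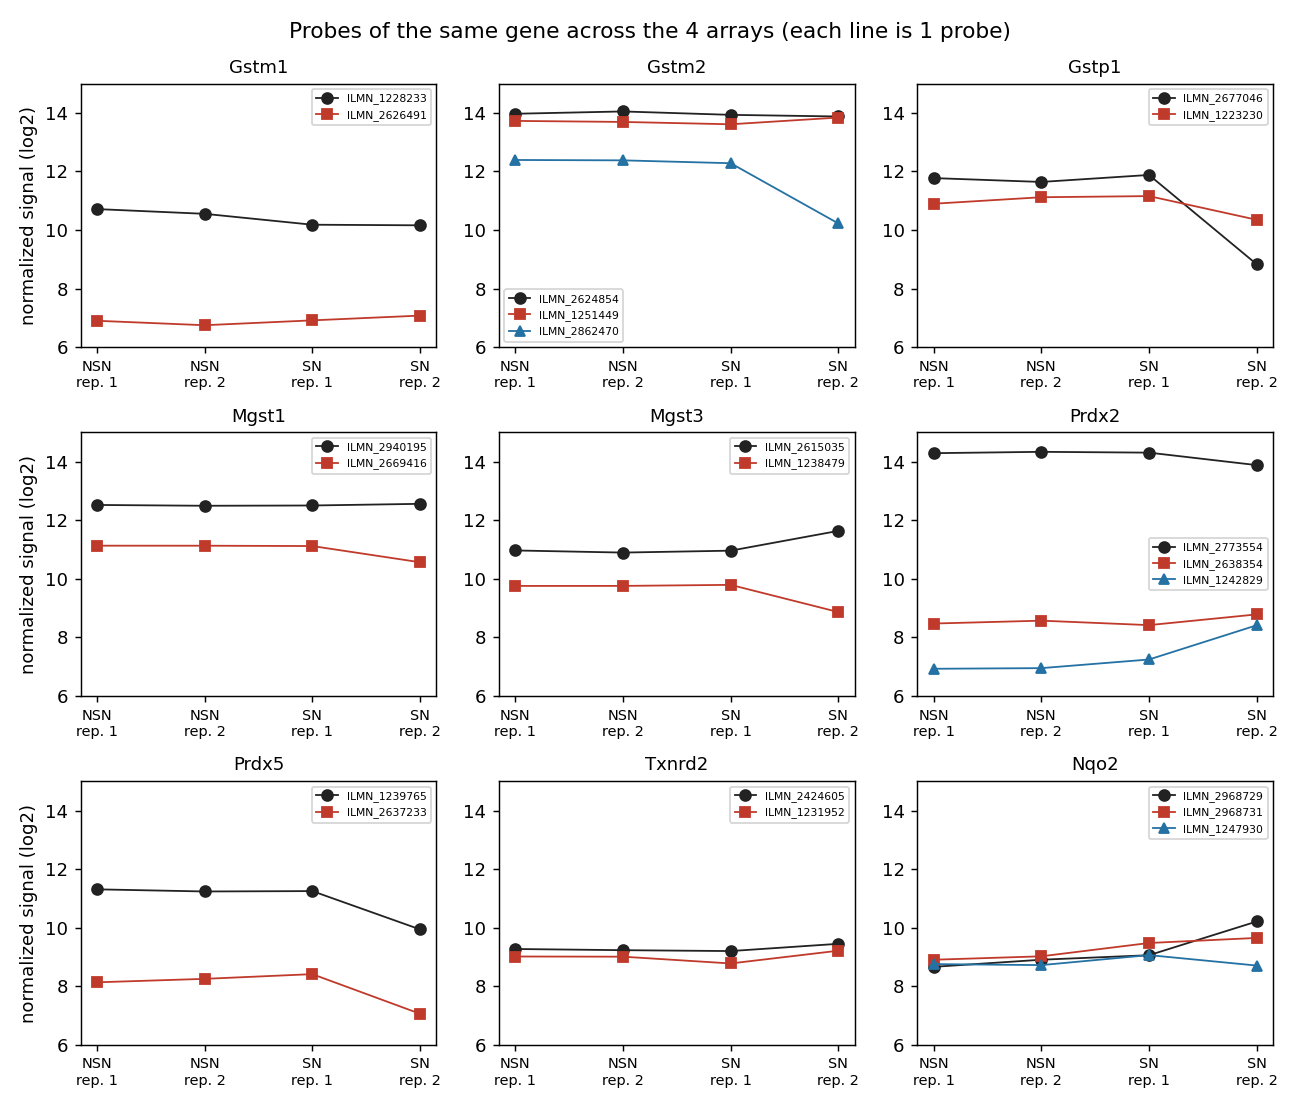
Normalized log2 signal of every probe above background on all 4 arrays, for the 9 genes with more than 1 such probe, with 1 line a probe and the pools on the horizontal axis. Lines of a gene run side by side across both NSN-CCs pools and SN-CCs replicate 1 and part at SN-CCs replicate 2 in Gstm2, Gstp1, Mgst3, Prdx2 and Nqo2.

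A wider list of glutathione and redox genes that the rule did not pick (69 genes, such as the regulators Nfe2l2 and Keap1, glutathione breakdown enzymes and NADPH suppliers) held 0 called genes and 0 at an unadjusted p under 0.05 (limma). Of them 32 had a fold change above 0 and 37 below, with a median of -0.0065, and 39 and 30 without SN-CCs replicate 2. The 3 higher genes of smallest p were Bach1, a repressor of NRF2 targets (0.50, SE 0.18), Txnl4a, a splicing protein with a thioredoxin fold (0.81, SE 0.32), and Srxn1, which repairs overoxidised peroxiredoxins (0.82, SE 0.34). The 3 lower ones were Chac1, which breaks down glutathione (-0.41, SE 0.16), Ggt6, of the gamma-glutamyltransferase family (-0.57, SE 0.23), and Glrx3 (-0.78, SE 0.32). The rule did not pick Glrx3, a glutaredoxin, because the array lists it by its older name Txnl2. Without SN-CCs replicate 2 the values were 0.35 for Bach1, 0.37 for Txnl4a, 0.35 for Srxn1, -0.29 for Chac1, -0.33 for Ggt6 and -0.34 for Glrx3. In each of the 6, picked by their p, the pools did not overlap after normalization. Over all probes the NSN-CCs pools lay above the SN-CCs pools for 16% and below them for 22.2%. Bach1 and Ggt6 were dim and above the limit on 3 arrays. The adjusted p of limma was 0.811 for each of the 6.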

How the data were processed

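RNA was amplified and hybridised by the authors to Illumina mouse-8 BeadChips and read in BeadStudio (version 3 in the submitters' processing notes). The authors deposited 2 tables of linear intensities: signals that are neither background-subtracted nor scaled, used here, and values after their background subtraction and rank invariant normalization, which were an exact linear transform of the first on each array. Detection p-values were not used here, and the number of arrays limits the precision.

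Deposited intensities were corrected with normexp (offset 50), quantile normalized and log2 transformed with no filter, and each of the 25697 probes was fitted in limma 3.58.1 (R 4.3.3, lmFit and eBayes, no covariates), with Benjamini-Hochberg adjustment. The test was run first on simulated data with the same spread in all pools, which does not cover the unequal spreads found here. The rule for the members reads gene symbols only, but it, the gene lists and the tests were set with earlier results of these data known. All genes above the background limit on 4 arrays are named, together with those at an unadjusted p under 0.05 or above the limit in 1 type only; 1 such gene is counted but not reported here. Of the wider list these are the 3 higher and 3 lower of smallest p. Bounds are set against the lowest signal above the limit on each array. Probes were named by the deposited symbols: 77 of 85 matched the platform annotation and 54 of 55 genes RefSeq (GRCm38.p6). Alternatives covered normalization, background correction, the authors' table, a filter, a replicate block, array weights and leaving out each array.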

Additional observations from a re-analysis of the deposited data

How the results depend on the processing

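The members' count of calls was 0 under every setting except without SN-CCs replicate 1, where limma called 43 of 85 (22 higher and 21 lower in NSN-CCs, 50.6%, beside 37.2% of all probes), so leaving out an array gave 0 to 43. The array-wide count was 118 with scaling to the 75th percentile (116 higher, 2 lower), 24 with the authors' table (22 higher, 2 lower), and 0 to 9547 when leaving out an array (1 without SN-CCs replicate 2). The lone array of a type is then assumed to vary like the other type, and without SN-CCs replicate 1 the widely differing replicate 2 stands for SN-CCs. Members at an unadjusted p under 0.05 numbered 2 with the filter on dim probes, 8 with array weights and 0 to 50 when leaving out an array (0 without NSN-CCs replicate 1 or 2, 12 without SN-CCs replicate 2). No source pairs the pools, and the steps from replicate 1 to 2 in NSN-CCs and SN-CCs correlated at r = 0.047 over 10579 probes; with the replicate number as a block, 0 probes were called, 610 had an unadjusted p under 0.05 and the smallest adjusted p of a member was 0.894.

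Scaling to the 75th percentile moved the median of all probes by -0.16 and the authors' table by -0.30, and the median of the member genes to -0.25 and -0.22. When leaving out an array this median lay between -0.12 and -0.0039, that of the microsomal transferases between -0.72 and 0.0041, of glutathione synthesis between -0.41 and -0.13, and of superoxide dismutases and catalase between 0.15 and 0.29. The synthesis genes were at -0.10 with no normalization, superoxide dismutases and catalase at -0.033 with the 75th percentile, and Nqo and Hmox at -0.076 with the authors' table. Of the other class medians, scaling to the 75th percentile moved the glutathione peroxidases to 0.073, the transferases to -0.25, the microsomal transferases to -0.70, the peroxiredoxins to -0.38 and the thioredoxin system to -0.40. No normalization moved the peroxidases to 0.27 and the transferases to -0.057, and the transferases were at -0.22 with the authors' table and -0.16 with the filter. Nqo and Hmox were at -0.069 with the 75th percentile and 0.13 with no normalization. Of the probes with an unadjusted p under 0.05, Gstm1 was at 0.24 with the 75th percentile and Gss at 0.028 with the authors' table. Prdx1 and Prdx4 were at -0.64 and -0.75 with the 75th percentile and at -0.44 and -0.55 with no normalization.

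Of 58 named probes, 8 changed sign with no normalization: Gstm2 ILMN_2624854 (-0.12), Gstm4 (0.033), Gstt1 (0.070), Gstt2 (0.21), Prdx2 ILMN_2773554 (-0.025) and ILMN_2638354 (0.097), Txnrd2 ILMN_2424605 (0.037) and Nqo2 ILMN_1247930 (0.036). Scaling to the 75th percentile turned 7: Gstm2 ILMN_2624854 (-0.31), Gstt2 (0.019), Prdx2 ILMN_2773554 (-0.22), Txnrd2 ILMN_1231952 (-0.041), Sod1 (-0.052), Sod3 (-0.015) and Hmox2 (-0.030). The authors' table turned 5: Gstm5 (0.032), Gpx2 (-0.24), Prdx2 ILMN_2638354 (0.0029), Txnrd2 ILMN_2424605 (0.042) and Sod3 (-0.22). Leaving out background correction, the filter, the block and array weights turned 0. Leaving out SN-CCs replicate 2 turned 20, SN-CCs replicate 1 turned 4, NSN-CCs replicate 2 turned 3 and NSN-CCs replicate 1 turned 0. The ranges over these were, for transferases, Gsta3 -1.13 to 0.037, Gsta4 -0.96 to 0.15, Gstm2 ILMN_1251449 -0.14 to 0.098, Gstm5 -0.36 to 0.30, Gstp1 ILMN_2677046 -0.16 to 2.91 and ILMN_1223230 -0.14 to 0.67, Gstt1 -0.59 to 0.27, Gstt2 -0.24 to 0.23, Gstt3 -0.72 to 0.17, Mgst1 -0.046 to 0.0041, Mgst2 -1.29 to 0.011 and Mgst3 ILMN_1238479 -0.034 to 0.90. For the others they were Gpx4 -0.20 to 2.08, Prdx2 ILMN_2638354 -0.27 to 0.099, Prdx3 -0.088 to 1.74, Prdx5 ILMN_2637233 -0.22 to 1.10, Txnip -0.23 to 0.097, Txnrd2 ILMN_2424605 -0.20 to 0.049 and ILMN_1231952 -0.20 to 0.23, Sod2 -0.27 to 0.22, Sod3 -0.056 to 0.21, Hmox1 -0.031 to 0.20, Hmox2 -0.0039 to 0.26 and Nqo2 ILMN_1247930 -0.32 to 0.035. Beyond what these settings show by construction, the cause was not tested. With 2 pools a type, and 30 member probes not above background on all arrays, differences could go undetected here, and not only small ones. The granulosa marker Amh had a log2 fold change of 2.53 and an adjusted p of limma of 0.811. The paper called Amh higher in NSN-CCs from these same arrays by its own test, and found it higher by qRT-PCR and by immunofluorescence of the protein.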
